A study of Mus musculus with 6 samples.

Results

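The 7 tendon lineage genes Scx, Mkx, Egr2, Tnmd, Thbs4, Col14a1 and Kera were followed in mouse chondrocytes that expressed a mutant or a wild-type histone. They were taken by gene symbol from a table of read counts that held 35976 genes, and 7 of 7 symbols were found. Chondrocytes, the matrix-producing cells of cartilage, were isolated from hind-limb articular cartilage at embryonic day 18.5 on a mixed C57BL/6 x 129S4/SvJae background, and were expanded as a monolayer on plastic for 16 population doublings. Both groups received doxycycline at 2 µg/ml with each medium change to switch on transgenic H3.3, a histone variant. For H3K9M (3 libraries, replicates 1, 3 and 5) lysine 9 of this H3.3 was replaced by methionine, and the genotype label describes methylation of that residue as suppressed. In the H3WT group (3 libraries, replicates 1, 2 and 4) the induced H3.3 was wild-type, so the controls also carried an induced histone transgene. The promoter of the transgene, and whether the libraries of a group came from separate animals, are not given in the sources used here, so the p-values measure only the spread between these libraries.

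Tendon and cartilage arise from neighbouring cells of the limb, and the progenitors at their junction carry both the tendon factor Scx and the cartilage factor Sox9. Scx, a basic helix-loop-helix factor that binds E-boxes, marks tendon progenitors from early stages. The homeobox factor Mkx and the zinc-finger factors Egr1 and Egr2 act with it in tendon maturation, and the membrane glycoprotein Tnmd and the collagen-binding matrix proteins follow in the differentiated cell. The levels of these genes were compared between expanded chondrocytes with the mutant histone and those with the wild-type histone.

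The members did not move as 1 group. Scx was measured at 1.88 times its H3WT level in H3K9M and Col14a1, a collagen of fibril surfaces, at a level 6.85 times lower, while Tnmd, Thbs4 and Egr2 overlapped between the groups. None of the 7 passed the test after correction over all genes. With edgeR's quasi-likelihood test and Benjamini-Hochberg adjustment, 0 of 13761 tested genes (0%) had an adjusted p under 0.05, against 1677 (12.2%) at an unadjusted p under 0.05 and 390 called by DESeq2. Of the members, 6 passed the filter on low counts and were tested, and Kera did not. Among these 6, 2 had an unadjusted p under 0.05, Scx upward and Col14a1 downward, where 6.42% of all tested genes were upward and 5.77% downward by that rule. DESeq2 called both of them. The groups did not overlap for 3 of the 6, against 19.4% of all tested genes. Of these, 1 was higher in H3K9M (Scx, background 10.7%) and 2 were lower (Mkx and Col14a1, background 8.68%). The median log2 fold change of the 6 was 0.30, beside -0.003 over all tested genes, and it moved to -0.091 without H3WT replicate 2 and to 0.71 when H3WT replicate 1 was left out instead.

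Total counts ranged from 15113675 to 19606082 per library. The labelled cell type was checked on 20 cartilage genes, all of which passed the filter. Col2a1, the main cartilage collagen, had between 4913 CPM (read counts scaled by the TMM method to a common library size) and 14110 CPM. By fitted value 19 of the 20 were lower in H3K9M, against 50.4% of all tested genes, and 12 of 20 without H3WT replicate 2. At an unadjusted p under 0.05 there were 3, each of them lower, and 0 after correction (edgeR). Of all tested genes 12.2% met that rule in either direction and 5.77% downward. DESeq2 called 1 of the 20, Matn4, and 390 of all 13761. The median log2 fold change of the 20 was -0.96, and -0.19 without H3WT replicate 2. H3WT replicate 2 stood apart, with a list median 1.78 (log2) above the genes' own means, against -0.80 to 0.44 in the other 5 libraries. The lowest was H3WT replicate 1 at -0.80, below H3K9M replicates 1, 3 and 5 (-0.63, -0.16 and 0.00045). Values of the tendon genes that H3WT replicate 2 moved most are therefore given with and without that library.

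Of 15 skeletal muscle genes 8 were tested. All 8 were higher in H3K9M by fitted value under each of the 3 scalings tried. At an unadjusted p under 0.05 there were 5, where 6.42% of all tested genes were upward, and 0 after correction (edgeR). Some passed the filter only through their H3K9M counts, such as Myod1 and Myh3 (12, 0 and 0 counts in H3WT), which favours this direction. With at least 10 counts in every library 3 were tested, and 3 were higher. DESeq2 called 2 of the 8, where it called 390 of all 13761 tested genes. The troponin gene Tnnt3 was among the 2 (DESeq2 adjusted p 0.0034). Without H3WT replicate 2 edgeR called 1 of 12 muscle genes tested in that fit, where it called 91 of all 14246. The summed level of the 15 genes was 192.1, 270.7 and 37.1 CPM for H3K9M replicates 1, 3 and 5 and 20.6 to 35.5 CPM in H3WT. Acta1 alone made up 32.8, 33.2 and 5.97 CPM of these H3K9M sums. In H3WT replicates 1, 2 and 4 it made up 26.2, 3.27 and 24.0 CPM. Myod1, the myogenic regulator, had 291, 1179 and 84 counts in H3K9M and 0, 20 and 0 in H3WT, and the satellite cell gene Pax7 was at 0 in all libraries. In bulk RNA, a change in the number of cells of a type and a change in RNA per cell cannot be told apart. The part of muscle cells in the differences below was not tested, and the muscle values are set beside Scx, Egr2 and Thbs4.

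Upstream sequence of Tnmd and Thbs4 is shown because Scx, whose H3K9M libraries all lay above the H3WT libraries, binds E-boxes (CANNTG, the same on both strands), while these 2 members overlapped between the groups. Each run covers the 220 bases that end 31 bases before the RefSeq start (GRCm38.p6), 5′ to 3′ on the gene's strand, with an E-box in capitals. RefSeq windows were found for 4 of the 7 members.
Tnmd (chrX:133850758-133850977, plus strand): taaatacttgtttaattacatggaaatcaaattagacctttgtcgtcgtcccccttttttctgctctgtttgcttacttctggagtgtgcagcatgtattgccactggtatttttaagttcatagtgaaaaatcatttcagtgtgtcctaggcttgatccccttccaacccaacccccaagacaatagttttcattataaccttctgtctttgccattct
Thbs4 (chr13:92794849-92795068, minus strand): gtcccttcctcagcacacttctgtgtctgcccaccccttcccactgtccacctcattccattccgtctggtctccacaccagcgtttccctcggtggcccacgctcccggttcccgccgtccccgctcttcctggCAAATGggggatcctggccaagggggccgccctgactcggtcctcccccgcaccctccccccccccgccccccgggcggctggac
The Thbs4 window held 1 E-box, CAAATG, beginning 115 bases before the start, and the Tnmd window held 0. The windows of Kera and of Egr2, which also overlapped between the groups, held 0 as well and are not printed. Egr2 had 5 listed starts, of which only the first was searched. Of the 32851 RefSeq windows of this length, 62.1% held at least 1. A match, or its absence, describes the letters in this window and says nothing of binding.

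Among the transcription factors, Scx was higher in every H3K9M library. It had 89.5, 75.1 and 90.7 CPM for H3K9M replicates 1, 3 and 5 and 50.6, 51.8 and 33.6 CPM for H3WT replicates 1, 2 and 4. The lowest H3K9M library lay well above the highest H3WT library, and H3WT replicate 4 was lowest of all. The means were 85.1 ± 8.69 CPM and 45.3 ± 10.1 CPM (SD, n = 3 each), a log2 fold change of 0.91 (SE 0.19, 95% interval 0.48 to 1.34). The unadjusted p was 0.00119 and the adjusted p 0.19 (edgeR), so the difference was larger than the spread between libraries for this gene taken singly and did not pass the correction. With DESeq2 the adjusted p was 0.00534, and with every gene that had a count it was 0.0438. Leaving out any 1 library kept the log2 fold change between 0.74 and 1.02, with adjusted p from 0.0822 to 0.495. H3K9M replicate 5 had the highest Scx level of all. Its summed muscle genes (37.1 CPM) were close to the highest H3WT value (35.5 CPM, replicate 1), but the genes behind the sums differed. Acta1 made up 26.2 CPM of the sum in H3WT replicate 1 and 5.97 CPM in H3K9M replicate 5. Myod1 had 0 counts in that H3WT library and 84 in H3K9M replicate 5. The part of muscle cells in the Scx difference was not tested. Scx (chr15:76457452-76459458, plus strand, GENCODE M21 on GRCm38) lies inside Bop1 on the opposite strand and shares 0 exonic bases with it. The strand setting of the counting is not given in the sources used here, so intronic reads of Bop1 could be counted under Scx. Bop1 was measured at 116.7 ± 10.2 CPM in the mutant and 104.3 ± 23 CPM in the control (SD, n = 3 each), 0.16 apart on the log2 scale (SE 0.17, adjusted p 0.759, edgeR). This gene count does not measure intronic reads of Bop1 within Scx, and their share in the Scx count was not tested.

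Scx was also set against Sox9 within each library, a ratio chosen after the data were seen. Sox9 itself had 113.8, 150.3 and 181.3 CPM in H3K9M and 144.9, 285.1 and 243.9 CPM in H3WT, overlapping between the groups (log2 fold change -0.60, SE 0.27, adjusted p 0.429, edgeR). The Scx to Sox9 ratio of CPM was 0.786, 0.500 and 0.500 for H3K9M replicates 1, 3 and 5 and 0.349, 0.182 and 0.138 for H3WT replicates 1, 2 and 4. All 3 H3K9M ratios lay above all 3 H3WT ratios. The mean log2 ratio was -0.78 ± 0.38 in H3K9M and -2.28 ± 0.69 in H3WT (SD, n = 3 each), with p 0.1 in an exact two-sided permutation test, the smallest that 3 against 3 can give, and 0.3 after adjustment over the 3 ratios computed.

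Mkx was low in all libraries and a little lower in H3K9M, a difference that did not pass the test. It had 8.64, 7.92 and 9.13 CPM for H3K9M replicates 1, 3 and 5 and 13.9, 11.7 and 9.84 CPM for H3WT replicates 1, 2 and 4. The groups did not overlap, though H3K9M replicate 5 and H3WT replicate 4 lay close together. The means were 8.57 ± 0.608 CPM and 11.8 ± 2.02 CPM (SD, n = 3 each). On the log2 scale they lay -0.46 apart (SE 0.24, 95% interval -1.02 to 0.10, adjusted p 0.477, edgeR), so the interval included 0, and it stayed between -0.57 and -0.33 when any 1 library was left out. Its annotation shares 201 exonic bases with another gene on the same strand, AC148004.2. How the counting treated reads there is not given in the sources used here.

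Egr2, which besides tendon acts in Schwann cell myelination and in hindbrain patterning, was low in all libraries. Reads numbered 54, 50 and 14 for H3K9M replicates 1, 3 and 5, and 21, 0 and 42 for H3WT replicates 1, 2 and 4. The count of 0 in H3WT replicate 2 allows up to 0.156 CPM (3 counts, counting error only). The groups overlapped widely, at 2.25 ± 1.46 CPM and 1.22 ± 1.24 CPM (SD, n = 3 each), and the log2 fold change of 0.88 had a 95% interval of -2.04 to 3.81 (adjusted p 0.833, edgeR). The estimate was 0.31 without H3WT replicate 2, 0.37 without H3K9M replicate 1, and 1.92 without H3WT replicate 4. Egr2 was at 3.62, 2.42 and 0.714 CPM for H3K9M replicates 1, 3 and 5, beside muscle sums of 192.1, 270.7 and 37.1 CPM. H3WT replicate 4 had 2.47 CPM of Egr2 beside a muscle sum of 30.5 CPM, of which Acta1 made up 24.0 CPM. Whether muscle cells had a part in these levels was not tested. Of 10 Schwann cell genes 6 were tested, with 1 at an unadjusted p under 0.05, close to the background of 12.2%. That gene was Mbp (17.2 ± 2.05 against 4.67 ± 2.21 CPM, SD, n = 3 each, adjusted p 0.194, edgeR), which DESeq2 called (adjusted p 0.00158) and edgeR called without H3WT replicate 2 (adjusted p 0.0499). Prx, another myelin gene of the list, lay the other way without overlap, at 9.53 ± 4.31 against 15.8 ± 1.71 CPM (SD, n = 3 each, adjusted p 0.452, edgeR). The defining Schwann cell genes Sox10 and Foxd3 were at 0 in all libraries. The related factor Egr1, also active in tendon, had means of 90.3 ± 14.1 CPM with the mutant histone and 73.3 ± 17.5 CPM without it (log2 fold change 0.30, SE 0.20, adjusted p 0.582, edgeR). Egr3 was as sparse as Egr2, at 1.71 ± 1.14 and 2.04 ± 1.11 CPM.

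**Figure D1:**
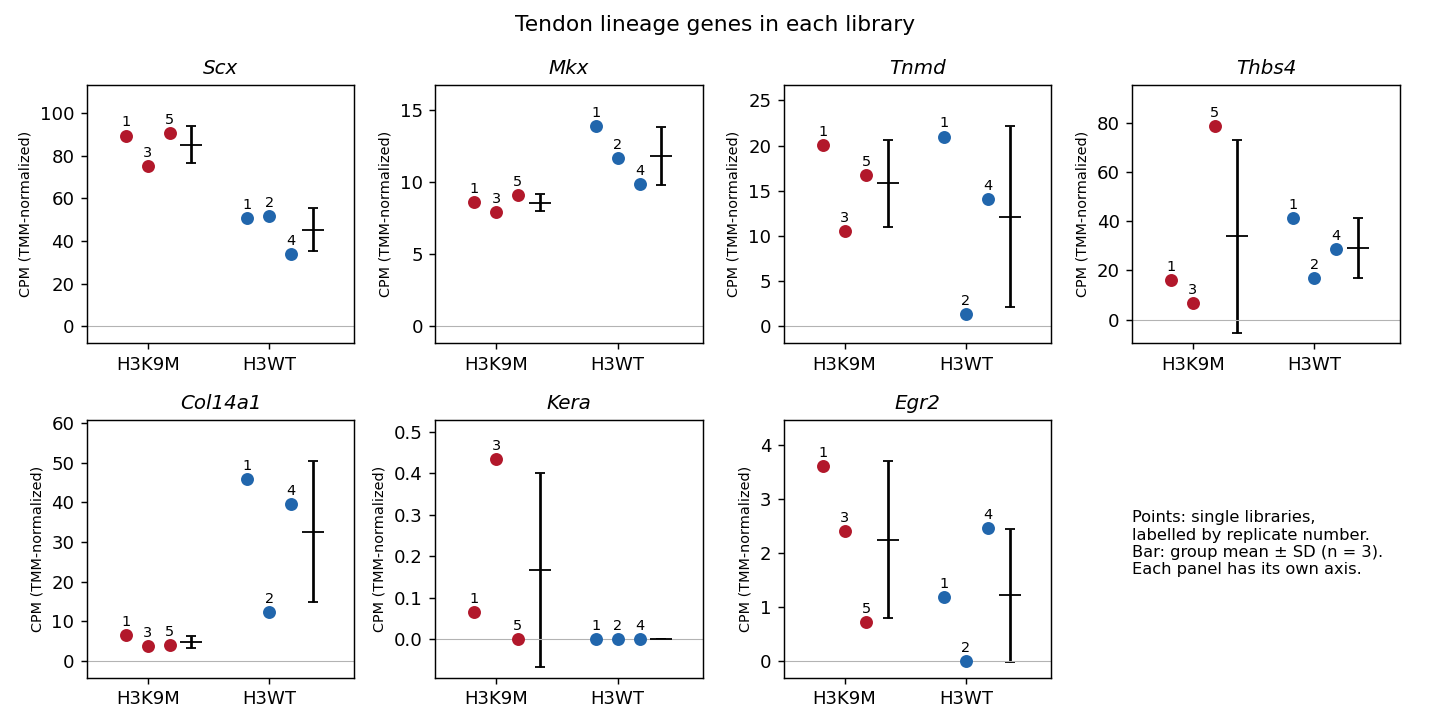
TMM-normalized CPM of the 7 tendon lineage genes in each of the 6 libraries, 1 panel per gene with its own axis; points are libraries labelled by replicate number and bars give the group mean ± SD (n = 3). Scx is higher in all 3 H3K9M libraries (75.1 to 90.7 CPM against 33.6 to 51.8), Col14a1 and Mkx are lower in all 3, and Kera has at most 0.435 CPM.

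Among the matrix and membrane members, Col14a1 differed most. This collagen belongs to the fibril-associated class, which sits on the surface of collagen fibrils. It had 6.43, 3.87 and 4.03 CPM for H3K9M replicates 1, 3 and 5 and 45.8, 12.4 and 39.7 CPM for H3WT replicates 1, 2 and 4. The groups did not overlap, and the H3WT libraries were themselves split, with replicate 2 near 12 CPM and the other two near 40 or above. The means were 4.78 ± 1.44 CPM and 32.6 ± 17.8 CPM (SD, n = 3 each), a log2 fold change of -2.78 (SE 0.50, 95% interval -3.95 to -1.60). The unadjusted p was 0.000714 and the adjusted p 0.17 (edgeR). Without H3WT replicate 2 the log2 fold change was -3.16 and the adjusted p 0.0129, and without any other library the adjusted p lay between 0.294 and 0.495. DESeq2 gave an adjusted p of 2.31e-06 on all 6 libraries. Col14a1 lies on chromosome 15 (chr15:55307750-55520803, plus strand), and its exons overlap those of no other GENCODE M21 gene.

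Tnmd, a membrane glycoprotein of mature tendon cells, varied more within the control group than between the groups. It had 20.03, 10.6 and 16.8 CPM for H3K9M replicates 1, 3 and 5 and 21.0, 1.30 and 14.1 CPM for H3WT replicates 1, 2 and 4. H3WT replicate 2 was far below the other 5 libraries, which spanned a range of about 10 to 21 CPM in both groups. The means were 15.8 ± 4.80 CPM and 12.1 ± 9.99 CPM (SD, n = 3 each). The log2 fold change of 0.38 (SE 0.84, adjusted p 0.898, edgeR) had a 95% interval of -1.63 to 2.40 and was -0.14 without that library. Cnmd, the cartilage relative of Tnmd (listed in the table under its older symbol Lect1), had its highest level in the same library, at 283.7 CPM against 30.1 to 197.3 CPM in the others. The Tnmd to Cnmd ratio was 0.666, 0.114 and 0.269 for H3K9M replicates 1, 3 and 5 and 0.593, 0.00457 and 0.0713 for H3WT replicates 1, 2 and 4, overlapping between the groups (p 0.4, exact two-sided permutation test, 0.6 adjusted over 3 ratios). The Tnmd to Scx ratio was 0.141 to 0.224 in H3K9M, and in H3WT 0.415, 0.0251 and 0.419, so that H3WT replicates 1 and 4 lay above and replicate 2 below all H3K9M libraries (exact p 1).

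Thbs4, a pentameric glycoprotein that binds collagen fibrils in tendon and muscle, followed single libraries. It had 16.0, 6.86 and 78.8 CPM for H3K9M replicates 1, 3 and 5 and 41.4, 17.1 and 28.7 CPM for H3WT replicates 1, 2 and 4. H3K9M held both the highest and the lowest library, with means of 33.9 ± 39.2 CPM and 29.1 ± 12.2 CPM (SD, n = 3 each). Its log2 fold change of 0.22 was not past the test (SE 0.88, 95% interval -1.92 to 2.36, adjusted p 0.95, edgeR), and it was -1.34 without H3K9M replicate 5, with an adjusted p of 0.44. Thbs4 was lowest in H3K9M replicate 3, the library with the highest muscle sum, and highest in H3K9M replicate 5, the H3K9M library with the lowest. H3WT replicate 2 had the lowest muscle sum of all libraries (20.6 CPM) and 17.1 CPM of Thbs4. H3K9M replicate 1 had a similar Thbs4 level (16.0 CPM) beside a muscle sum of 192.1 CPM. Whether muscle cells had a part in the Thbs4 levels was not tested.

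Kera, the keratan sulfate proteoglycan keratocan, was hardly detected. It had 1, 9 and 0 counts for H3K9M replicates 1, 3 and 5 and 0 in each H3WT library. Of its 10 reads 9 came from H3K9M replicate 3, so no fold is printed and no difference was detectable at this depth. Kera was fitted only where no filter was set, and it was not called there. A count of 0 allows up to 0.156 to 0.177 CPM in an H3WT library (3 counts, counting error only).

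**Figure D2:**
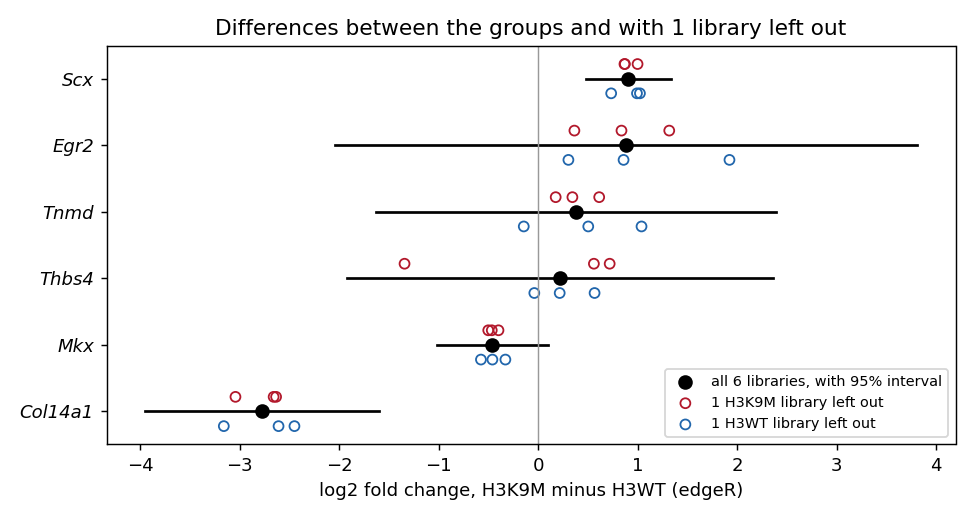
Log2 fold change (H3K9M minus H3WT, edgeR) of the 6 tested tendon lineage genes; black points and lines give the fit on all 6 libraries with its 95% interval, open circles the fits that leave out 1 library, red for H3K9M and blue for H3WT. The interval excludes 0 for Scx (0.48 to 1.34) and Col14a1 (-3.95 to -1.60), before any correction for multiple testing, and the open circles cross 0 for Tnmd and Thbs4.

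Levels were compared between genes per length, as CPM per kilobase of the longest protein-coding GENCODE M21 transcript. In H3WT the order was Scx (43.8 ± 9.80), Thbs4 (9.09 ± 3.81), Tnmd (8.96 ± 7.39), Col14a1 (5.05 ± 2.76), Mkx (3.23 ± 0.553), Egr2 (0.411 ± 0.417) and Kera (0), as mean ± SD over 3 libraries in CPM per kilobase. Scx stood clear of the rest. Thbs4, Tnmd, Col14a1 and Mkx did not differ from one neighbour to the next beyond their spread, and Mkx lay above Egr2 by more than the spread of both. In H3K9M Scx was again first (82.2 ± 8.40), followed by Tnmd (11.7 ± 3.55), Thbs4 (10.6 ± 12.3), Mkx (2.35 ± 0.167), Egr2 (0.759 ± 0.492), Col14a1 (0.740 ± 0.222) and Kera (0.0734 ± 0.103). Col14a1 thus stood beside Egr2 in H3K9M and among the matrix genes in H3WT. On the same scale Sox9 was at 54.3 ± 17.4 in H3WT, within its spread of Scx, and at 35.9 ± 8.17 in H3K9M, below Scx by more than the spread (SD, n = 3 each). Both statements depend on the length chosen. The annotation gives Scx 2007 exonic bases in all, against 1035 in the transcript used here, and gives Sox9 4135 by both measures. Dividing by 2007 would lower the Scx values in both groups and leave Sox9 as it is. Scx would then lie below Sox9 in H3WT by more than the spread, and within the spread of Sox9 in H3K9M. Neither statement therefore holds under both lengths. Col2a1 was at 1235 in H3K9M and 1889 in H3WT.

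**Figure D3:**
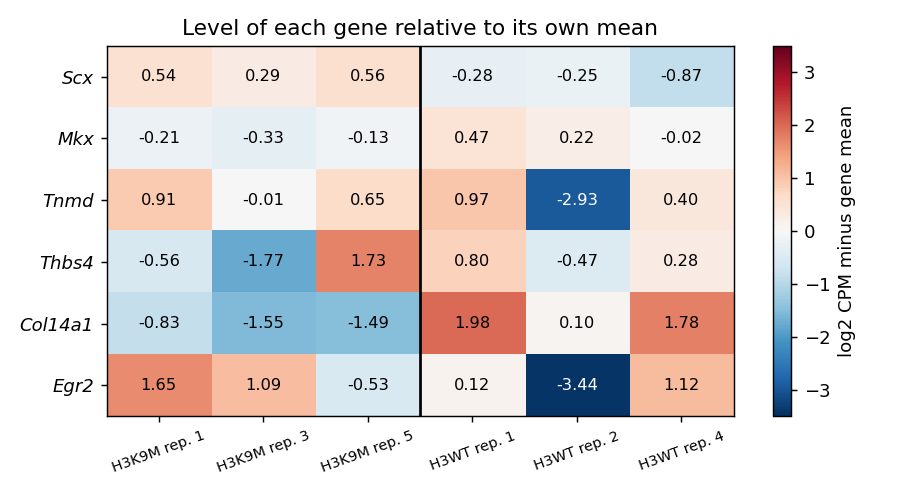
Log2 CPM of each tested tendon lineage gene in each library, minus the mean of that gene over the 6 libraries (rows are genes, columns libraries, red above and blue below the mean). Scx is positive in all 3 H3K9M columns and Col14a1 negative in all 3, and the lowest cells are Tnmd (-2.93) and Egr2 (-3.44) in H3WT replicate 2.

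Within the set, H3WT replicate 2 was the library in which Tnmd and Egr2 were lowest, at -2.93 and -3.44 (log2) relative to their own means, and in the same library Scx stood at -0.25 and Mkx at 0.22. The genes whose profile over the 6 libraries was most like that of each member were found by the root-mean-square difference of log2 CPM, each centred on its own mean, over 12880 other genes. For Scx these were Pno1, a ribosome assembly factor, at 0.10, and Dut, the deoxyuridine triphosphatase, at 0.11, against a range of 1.43 in Scx itself. For Col14a1 they were the complement factor Cfb (0.17) and the microfibril protein gene Mfap2 (0.18), against a range of 3.53. Cfb had 2.01, 1.35 and 1.28 CPM in H3K9M and 14.9, 4.46 and 18.2 CPM in H3WT, and Mfap2 4.35, 2.37 and 2.19 against 28.8, 8.56 and 32.99 CPM. In both, H3WT replicate 2 held the middle position that it held in Col14a1, which follows from their choice by likeness over these same libraries. For Tnmd the nearest were Gm4473 (0.19) and Zfp597 (0.24). Zfp597 had 0.934 CPM in H3WT replicate 2 against 7.54 CPM or more in the other libraries, which likewise follows from how it was chosen. The nearest to Mkx were Abca5 and Ier5l (both 0.09, against a range of 0.80). No gene came within 0.32 of Egr2 or within 0.48 of Thbs4, where the nearest were Ifnlr1 (0.33) and Neb (0.34), and Acot1 (0.48) and Nxph4 (0.49).

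The wider tendon programme was described with 45 further genes, of which 43 were tested. With edgeR none passed the test after correction, and 2 were higher and 4 lower in H3K9M at an unadjusted p under 0.05, which is 6 of 43 against 12.2% of all tested genes and so near the background. DESeq2 called 3 of the 43, Prelp, Fmod and Cilp, where it called 390 of all 13761 tested genes. The median log2 fold change was -0.10 beside -0.003 over all genes, and moved to -0.29 without H3WT replicate 2 and to -0.22 without H3K9M replicate 1. By fitted value 31 were lower and 12 higher. The 9 collagens, among them Col1a1, Col3a1 and Col5a1, had a median of -0.09 and 0 at an unadjusted p under 0.05. The 7 transcription factors and cofactors had a median of -0.25, with 1 at that threshold (lower), and the 8 tested genes of TGF-beta and GDF signalling had a median of -0.26, also with 1.

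That signalling gene was Tgfbr2, the type II receptor of TGF-beta, a pathway that maintains Scx in tendon. It had 231.6, 172.8 and 207.3 CPM for H3K9M replicates 1, 3 and 5 and 295.3, 246.2 and 462.8 CPM for H3WT replicates 1, 2 and 4, without overlap (log2 fold change -0.72, SE 0.24, adjusted p 0.308, edgeR). It was -0.41 without H3WT replicate 4.

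Among the 7 small leucine-rich proteoglycans, which bind collagen fibrils and set their diameter, 2 were lower in H3K9M at an unadjusted p under 0.05. Of all tested genes 5.77% were lower by that rule, and the division by role was made after values were seen. Prelp had 129.2, 83.8 and 137.8 CPM in H3K9M and 682.9, 333.9 and 755.5 CPM in H3WT. The fitted difference was -2.34 on the log2 scale (SE 0.34, adjusted p 0.17, edgeR), and the adjusted p was 0.0129 without H3WT replicate 2 and 1.01e-10 with DESeq2 on all 6 libraries. All its H3K9M libraries lay below all H3WT libraries, and H3WT replicate 2 was again the lowest of its group. Fmod, the fibromodulin gene of tendon and cartilage, had 881.4, 572.2 and 630.1 CPM against 1673, 795.2 and 1494 CPM, overlapping only through H3WT replicate 2 (log2 fold change -0.93, SE 0.30, adjusted p 0.294, edgeR). Without that library it was -1.18 with an adjusted p of 0.0606, and DESeq2 gave an adjusted p of 0.0385 on all 6 libraries. The other 5 had log2 fold changes between -0.21 and 0.18.

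The 2 genes of the wider programme that were higher at that threshold were Igfbp6 and Cilp. Igfbp6, a binding protein of insulin-like growth factors, had 76.2, 91.9 and 86.0 CPM in H3K9M and 75.3, 30.2 and 41.5 CPM in H3WT, so that the groups nearly touched (log2 fold change 0.79, SE 0.31, adjusted p 0.382, edgeR). The log2 fold change moved to 0.55 without H3WT replicate 2, and leaving out replicate 1 of that group instead gave 1.24. Cilp, a cartilage and tendon matrix protein, was at 1.27, 1.88 and 6.79 CPM in H3K9M and at 0.337, 0 and 0 CPM in H3WT. Its fitted fold depends on the handling of the zeros (adjusted p 0.261 with edgeR and 0.0112 with DESeq2). Cilp passed the filter only through its H3K9M counts (19, 39 and 133, against 6, 0 and 0 in H3WT), which favours the higher direction. It was not tested where a minimum count was required in every library.

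**Figure D4:**
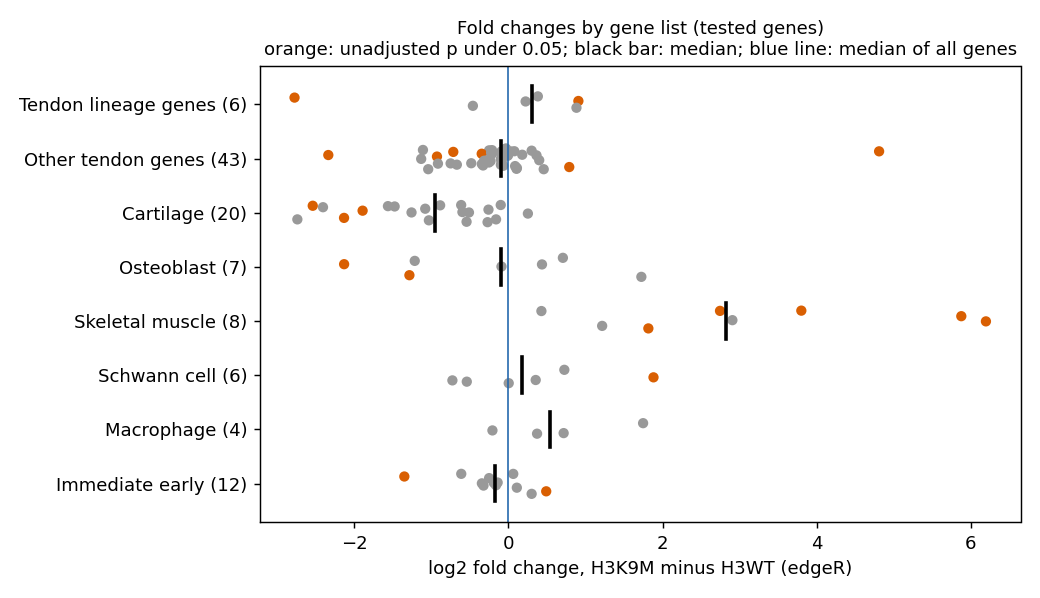
Log2 fold change (H3K9M minus H3WT, edgeR) of the tested genes of 8 lists, 1 point per gene, with the number tested in brackets; orange points had an unadjusted p under 0.05, black bars are list medians and the blue line is the median of all genes. The tendon lineage genes spread from -2.78 to 0.91 around a median of 0.30, the other tendon genes centre on -0.10, and the skeletal muscle genes all lie to the right of 0.

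Other cell types that a limb preparation could hold were checked by their markers. Of 8 endothelial genes 0 passed the filter, with summed levels of 1.12 to 1.30 CPM in H3K9M and 1.35 to 2.28 CPM in H3WT. Of 10 macrophage genes 4 were tested and 5, Ptprc among them, were at 0 in all libraries. Of 8 osteoblast genes 7 were tested, and Ibsp (1.93 ± 1.09 against 8.50 ± 3.27 CPM) and Sp7 (4.85 ± 2.89 against 11.8 ± 4.93 CPM) were lower in H3K9M at an unadjusted p under 0.05 (SD, n = 3 each). Of 12 immediate early genes, which share the growth-factor response of the Egr family, 1 was higher (Junb, 95.4 ± 9.86 against 67.9 ± 6.07 CPM) and 1 lower (Nr4a1, 5.30 ± 1.59 against 13.5 ± 8.25 CPM) by that rule. Of 6 genes of joint lining and tendon sheath, Prg4, the lubricin gene, was higher (132.5 ± 4.56 against 79.4 ± 14.4 CPM) and Vit lower (1.54 ± 1.598 against 6.37 ± 3.17 CPM). The osteoblast, immediate early and joint-lining counts were 2 of 7, 2 of 12 and 2 of 5 tested genes, against 12.2% of all tested genes. None of these passed after correction (adjusted p 0.18 to 0.382, edgeR), while DESeq2 called Ibsp and Prg4 (adjusted p 0.0116 and 0.00518). Of all 13761 tested genes DESeq2 called 390. The part of other cell types in the differences of the tendon lineage genes was not tested further.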

How the data were processed

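Polyadenylated RNA of 6 libraries was sequenced from Tecan Universal Plus libraries, per the labels' protocols. The authors deposited 1 table of raw read counts per gene symbol. HISAT2, featureCounts, DESeq2 and the build mm10 are named, per the submitters' processing notes. Versions, annotation and strand setting are not given in the sources used here. Each column name equalled the title of 1 sample, 0 columns lay outside the series, and every row carried a symbol.

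The counts were fitted by edgeR 4.0.16 (R 4.3.3) after filterByExpr with its defaults and TMM scaling, with a robust quasi-likelihood model (glmQLFit, glmQLFTest) of the 3 and 3 libraries by genotype. Benjamini-Hochberg adjustment ran over 13761 genes with a threshold of 0.05. Standard errors were obtained as the absolute log2 fold change over the root of F. Log2 CPM used a prior count of 2. An exact permutation test of 3 against 3 cannot give a two-sided p below 0.1. Totals of 15113675 to 19606082 counts per library limit precision for sparse genes, and 3 counts were the floor. Alternatives were DESeq2 1.42.0, limma-voom (limma 3.58.1), other scalings and filters, and leaving out each library. The code was tested on simulated data.

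Named genes were the 7 members, Sox9, Col2a1, Cnmd, Egr1, Egr3, up to 3 genes per direction of each other list at an unadjusted p under 0.05 (not all are printed), and the 2 genes of at least 1 mean CPM nearest to each member. Bop1 and the counts of Pax7, Sox10, Foxd3 and Ptprc were added after values were seen, as were the ratios and the division of the wider tendon list by role. The members and lists were chosen with earlier results of these data known. Gene positions and lengths came from GENCODE M21 (GRCm38, the build of mm10). A blastn 2.17.0 search (at least 90% identity over 200 bases) found a similar transcript for 1 member, Mkx.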

Additional observations from a re-analysis of the deposited data

How the results depend on the processing

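The count of called genes was 0 of all genes and 0 of the tendon lineage genes, and stayed at 0 with limma-voom, with both other scalings (DESeq2's factors or none) and with a minimum of 10 counts in every library. DESeq2's Wald test called 390 genes, 193 of them higher in H3K9M, and 2 tendon lineage genes (Scx and Col14a1). Testing every gene with a count gave 36, 18 of them higher, and 1 (Scx). When 1 library was left out the count ran from 0 to 91 (37 higher), and from 0 to 1 for the tendon lineage genes, with the 91 and the 1 (Col14a1) coming without H3WT replicate 2 and 2 genes without H3K9M replicate 3. The lowest median log2 fold change of the tested members in such a fit was -0.091, without H3WT replicate 2, and the highest 0.71, where H3WT replicate 1 was dropped. The cause of these shifts was not tested.

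Signs turned for 6 genes. With 1 library left out at a time, Tnmd ran from -0.14 to 1.04 and Zfp597 from -0.18 to 0.75, each negative only without H3WT replicate 2, and Gm4473 from -8.86e-05 in that fit to 0.91. Thbs4 ran from -1.34 (without H3K9M replicate 5) to 0.72, was -0.038 without H3WT replicate 2, and was -0.39 with limma-voom. Egr3 ran from -0.89 to 0.13 (without H3K9M replicate 5), with 0.055 without H3WT replicate 4, and Nxph4 from -0.79 to 0.30 (without H3K9M replicate 3), with 0.0074 without H3WT replicate 1. Scx, Mkx, Col14a1 and Egr2 kept their direction under each alternative in which they were tested. Kera was tested only where no filter was set, and Egr2 was left out by the minimum of 10 counts. No paired analysis was possible because the groups shared only 1 replicate number. The depth limits Kera, with 10 reads in all, and for the other members the number of libraries, 3 a group, limits the precision.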
